A study of Arabidopsis thaliana with 12 samples.

Results

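The comparison described here is that of gun4-1 with wild-type Col-0 in Arabidopsis seedlings grown on norflurazon. Its members are all genes of the authors' deposited table for this pair of genotypes: 37958 genes with an AGI locus code, each taken as the transcript that had the greatest mean level over the pair, of which 19001 were tested by the authors. The study sequenced mRNA from gun4-1, gun5-1, gun1-1 and Col-0, with 3 libraries for each of the 4 genotypes. All 12 libraries, those of Col-0 included, came from plants on MS medium with 5 µM norflurazon that were 5 d old, and the light given is 100 µE. The mutants are listed in the Col-0 background, each as 1 allele, and no library without norflurazon was used here.

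RNA came from whole seedlings by the sample labels and from leaves by the design text. Transcripts of root and shoot cell types were present in both genotypes: the 5 endodermis markers summed to 119 FPKM in gun4-1 and 111 FPKM in Col-0, and the 5 epidermis markers to 2793 FPKM in gun4-1 and 2207 FPKM in Col-0. FPKM are fragments scaled by transcript length and by the number of mapped fragments. The deposited tables hold 1 value per genotype and transcript, so the depth and the spread between the 3 libraries are unknown. In bulk seedling RNA, fewer cells of a type and less RNA per cell cannot be told apart.

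Norflurazon blocks phytoene desaturase, an enzyme of carotenoid synthesis, and chloroplasts without carotenoids are bleached by light. In wild-type seedlings, bleached plastids are accompanied by low transcript levels of nuclear genes for photosynthesis, and genomes uncoupled (gun) mutants were found because these genes stay more active. GUN4 binds porphyrins and stimulates magnesium chelatase, the first enzyme of the chlorophyll branch of tetrapyrrole synthesis. GUN5 is CHLH, the H subunit of that enzyme, and GUN1 is a pentatricopeptide repeat protein of plastids. The comparison asks which transcripts differ when GUN4 is mutated and the plastids are bleached in both genotypes.

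In gun4-1 70 of 77 tested nuclear genes of photosynthesis were higher, and so were 42 of 66 tested transcripts of the plastid genome. Of tetrapyrrole synthesis 18 of 25 genes and of the plastid ribosome 26 of 29 nuclear genes were higher, with smaller medians. Among the genes that were lower were 9 of 19 tested seed storage and maturation genes, 9 of 25 flavonoid genes, 10 of 17 mitochondrial stress genes and the ferritins FER1 and FER3. A gene was called where the authors' Cuffdiff test had a q-value under 0.05. By that rule 2678 of 19001 tested genes were called, which is 14.1%, with 1561 higher (8.22%) and 1117 lower (5.88%). At least 2-fold differences were found for 301 called genes that were higher (1.58%) and 275 that were lower (1.45%). The median log2 fold change over all tested genes was 0.00 when rounded, a value that the authors' scaling between samples can itself bring about. It was -0.05 for genes with a mean of 1 to 5 FPKM and 0.09 for genes at 100 FPKM or more.

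From 1 FPKM up, the share of called genes grew with the level of the transcript. It was 8.09% of 4968 genes with a mean of 1 to 5 FPKM, 13.5% of 7150 genes at 5 to 20 FPKM, 16.8% of 5239 genes at 20 to 100 FPKM and 27.2% of 1546 genes at 100 FPKM or more. In that highest class 22.1% were higher in gun4-1 and 5.17% lower, whereas at 5 to 20 FPKM the shares were 6.55% and 6.99%. The standard error (SE) of a log2 fold change, taken from the authors' test statistic or p-value, had a median of 0.63 at 1 to 5 FPKM and 0.18 at 100 FPKM or more.

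**Figure D1:**
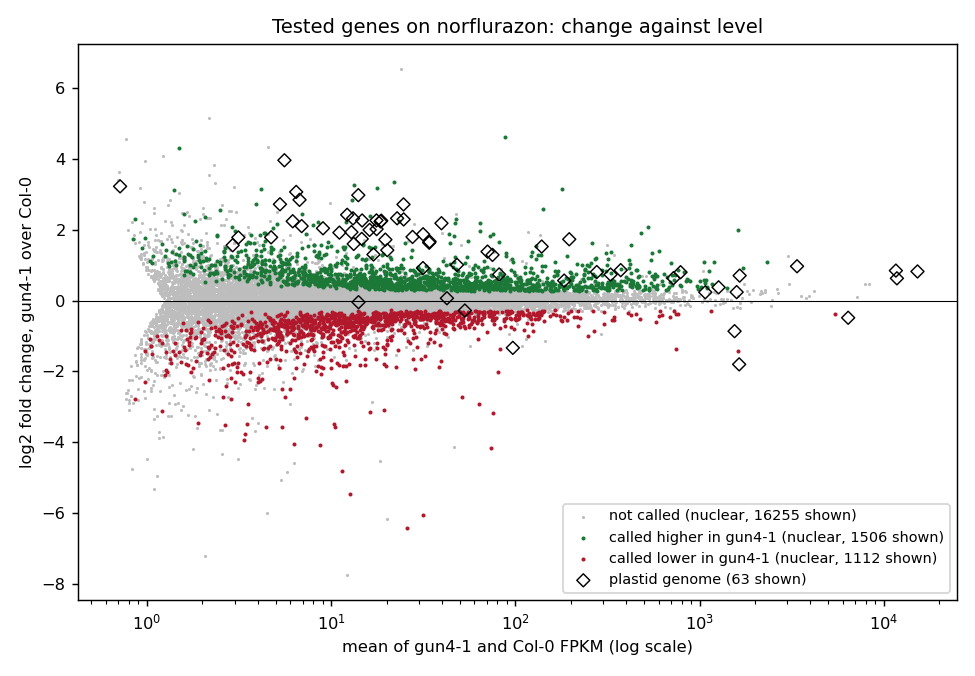
Log2 fold change of gun4-1 over Col-0 (vertical axis) against the mean of the gun4-1 and Col-0 group FPKM (horizontal axis, log scale) for 18949 tested genes; each point is 1 gene, coloured by the authors' call, and diamonds are plastid-encoded genes. Genes listed at 0 FPKM in a genotype (47) and 5 genes beyond 8 in size are not shown. The plastid-encoded genes lie mostly above 0, and called genes at 100 FPKM or more are mostly above 0 too.

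The mutated gene itself cannot serve as a check of the labels, because gun4-1 is known as a missense allele that leaves a transcript. In the authors' deposited table GUN4 (AT3G59400) had 3.67 FPKM in gun4-1 and 2.21 FPKM in Col-0, a log2 fold change of 0.73 (SE 1.19) that was not called (q = 0.611). Its listed place, chr3:21948501-21959410, also holds the kinase gene GCN2, so the split of reads between the pair is uncertain. CHLH (GUN5, AT5G13630, chr5:4387307-4392429), the subunit of the chelatase that binds porphyrin, had 333 FPKM in gun4-1 and 207 FPKM in Col-0, and rose by 0.69 (SE 0.19, q = 0.00103). GUN1 (AT2G31400, chr2:13386954-13390854) had 204 FPKM in gun4-1 and 160 FPKM in Col-0 and rose by 0.35 (SE 0.17, q = 0.00614). Here and below, q is the authors' q-value, which has a smallest listed value of 0.00103. Coordinates are those of the deposited tables counted from 1. The tables name no build, but 25705 of 25711 nuclear genes that stand alone at their listed place have the same start and end in the TAIR10.1 annotation of RefSeq.

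The light-harvesting chlorophyll a/b-binding proteins, the antenna of both photosystems, were the photosynthesis group with the largest median difference. Of 20 tested genes 19 were higher and none lower, with a median log2 fold change of 1.27, and their summed level was 9285 FPKM in gun4-1 and 3523 FPKM in Col-0. The major antenna genes of photosystem II led the list. LHCB1.1 (AT1G29920, chr1:10474656-10475969) had 321 FPKM in gun4-1 and 36.0 FPKM in Col-0 in the authors' deposited table, an 8.92-fold difference (log2 3.16, SE 0.19, q = 0.00103). LHCB1.4 (AT2G34430, chr2:14524607-14525918) was far less abundant, with 7.53 FPKM in gun4-1 and 0.840 FPKM in Col-0, at the same log2 fold change of 3.16 (SE 0.63). LHCB1.2 (AT1G29910, chr1:10472280-10473502) had 244 FPKM in gun4-1 and 40.2 FPKM in Col-0, and rose by 2.60 (SE 0.18). The most abundant member was LHCB1.3 at 2580 FPKM in gun4-1 and 642 FPKM in Col-0 (2.01, SE 0.21). LHCB1 genes are near-identical in sequence, and the split of reads among them is uncertain.

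The 3 LHCB2 genes rose by 1.97 (LHCB2.2), 1.83 (LHCB2.3) and 1.19 (LHCB2.1), and LHCB3 rose by 1.65 (SE 0.27). The minor antenna proteins sit between the major antenna and the photosystem II core. Of their genes, LHCB6 rose by 1.35 (SE 0.19), LHCB5 by 1.34 (SE 0.18), LHCB4.2 by 1.09 and LHCB4.1 by 0.65. LHCB4.3, the least abundant of them at 20.8 FPKM in gun4-1 and 15.1 FPKM in Col-0, rose by 0.47. The antenna of photosystem I moved in a narrower range: LHCA1 rose by 1.18, LHCA4 by 1.03, LHCA6 by 0.96, LHCA3 by 0.91 and LHCA2 by 0.87. LHCA5, a minor photosystem I antenna protein, was the exception with 115 FPKM in gun4-1 and 117 FPKM in Col-0 (-0.02, SE 0.24, q = 0.953).

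All 12 nuclear photosystem I genes were higher, with log2 fold changes between 0.69 (PSAL) and 1.15 (PSAO) and a median of 0.88. PSAO had 569 FPKM in gun4-1 and 256 FPKM in Col-0 in the authors' deposited table, PSAG 290 FPKM in gun4-1 and 140 FPKM in Col-0, and PSAK, a peripheral subunit, 992 FPKM in gun4-1 and 540 FPKM in Col-0. Of 11 photosystem II genes 10 were higher, with a median of 0.62. PSBQ-2, an extrinsic protein of the oxygen-evolving complex, had 119 FPKM in gun4-1 and 32.2 FPKM in Col-0 (1.88, SE 0.20). PSBS, which acts in the dissipation of excess light, had 478 FPKM in gun4-1 and 185 FPKM in Col-0 (1.37, SE 0.17). The other members of the oxygen-evolving complex rose less, with 0.68 for PSBP-1, 0.62 for PSBQ-1, 0.48 for PSBO1 and 0.43 for PSBO2. PSBR was not called and had 3696 FPKM in gun4-1 and 3384 FPKM in Col-0 (0.13, SE 0.21).

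**Figure D2:**
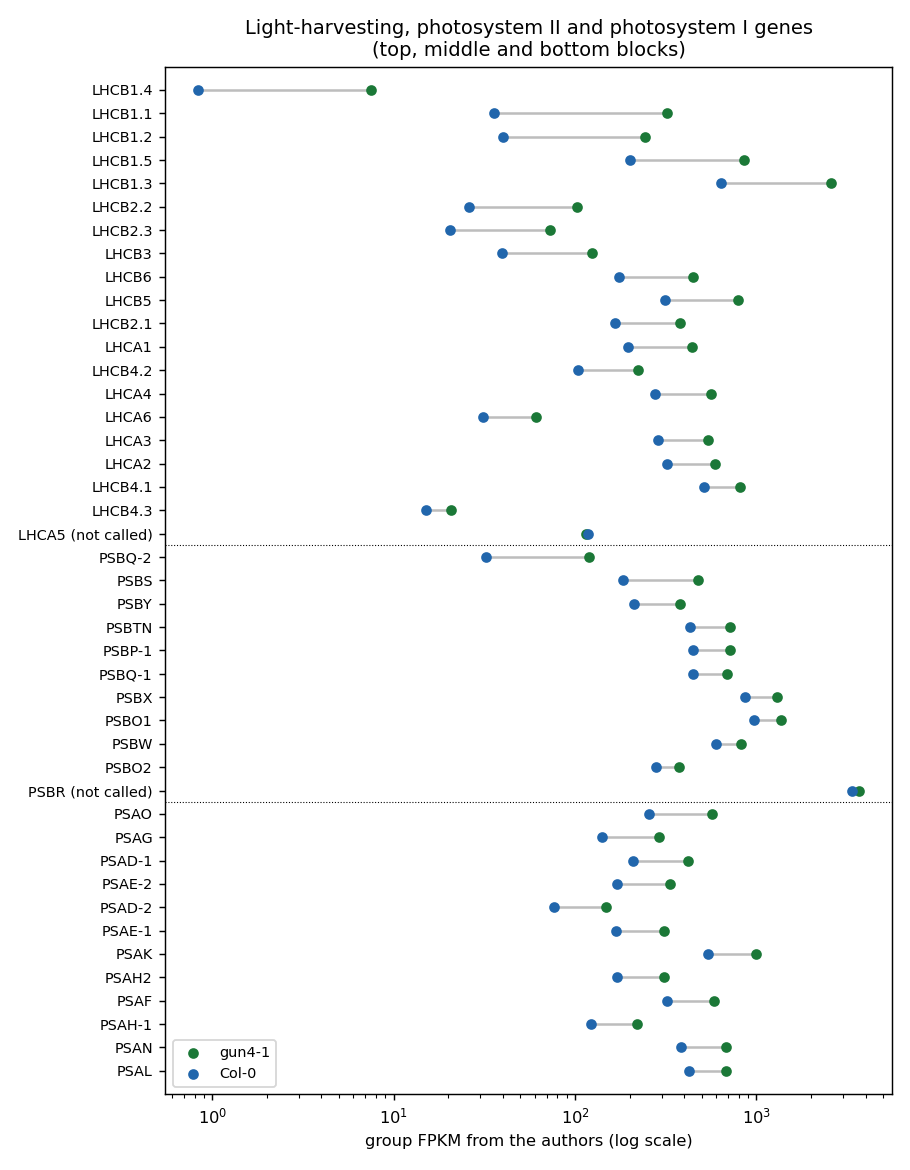
Group FPKM from the authors (horizontal axis, log scale) of 20 light-harvesting, 11 photosystem II and 12 photosystem I genes, 1 row per gene, with gun4-1 in green and Col-0 in blue joined by a line. The line is longest for LHCB1.4 and LHCB1.1 (log2 3.16 each) and shortest for the uncalled LHCA5 and PSBR; gun4-1 lies to the right in every row except LHCA5.

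Genes of electron transport and the ATP synthase were higher in 11 of 14 cases, with a median of 0.48. The minor plastocyanin PETE1, a copper protein that carries electrons to photosystem I, rose most, with 19.995 FPKM in gun4-1 and 8.17 FPKM in Col-0 (1.29, SE 0.30). The major plastocyanin PETE2 had 879 FPKM in gun4-1 and 530 FPKM in Col-0 (0.73, SE 0.18), and the ATP synthase subunits ATPC1 and ATPD rose by 0.72 and 0.66. Ferredoxin FD1, the kinase STN8 and PGR5, a protein of cyclic electron flow, were not called, with 0.26, 0.30 and 0.07.

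The Calvin cycle fixes carbon dioxide, and its list here also counts the carbonic anhydrases CA1 and CA2, which are not enzymes of the cycle. In this list 18 of 20 genes were higher, with a median of 0.79. CA1, a plastid carbonic anhydrase, had 169 FPKM in gun4-1 and 6.93 FPKM in Col-0 in the authors' deposited table, a 24.4-fold difference (log2 4.61, SE 0.28, q = 0.00103). It was the largest difference in the 5 photosynthesis lists, and its listed place holds 1 further gene. CA2 had 875 FPKM in gun4-1 and 328 FPKM in Col-0 (1.42, SE 0.18). Of the Rubisco small subunit genes, RBCS2B rose by 1.35, RBCS3B and RBCS1B by 1.09 each, whereas RBCS1A, the most abundant, had 9182 FPKM in gun4-1 and 6684 FPKM in Col-0 and was not called (0.46, SE 0.35, q = 0.133). These copies are near-identical too, with an uncertain split. Rubisco activase (RCA) rose by 1.101, and phosphoribulokinase (PRK) by 1.06. The regulatory protein CP12-2 rose by 0.97, and its relative CP12-1 was not called at 0.25 (q = 0.092).

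Together the 5 photosynthesis lists held 77 tested genes, of which 70 were higher and none lower, with a median of 0.85 and summed levels of 54096 FPKM in gun4-1 and 32730 FPKM in Col-0. Of the 47 that stand alone at their listed place, 44 were higher. The neighbouring pathway of photorespiration, which recycles the product of Rubisco's oxygenase reaction, had 6 of 13 genes higher, none lower and a median of 0.28. Its largest difference was that of the dicarboxylate transporter DIT1 at 56.3 FPKM in gun4-1 and 28.0 FPKM in Col-0 (1.01, SE 0.25). The peroxisomal enzymes GOX1, GOX2 and AGT were not called, with 0.24, 0.20 and 0.06.

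Plastid-encoded transcripts were also higher. Of 66 tested plastid genes 42 were called higher and none lower, with a median of 1.64. The libraries were made from poly(A)-selected mRNA, and most plastid transcripts lack a long poly(A) tail, so these levels are not those of total plastid RNA. The photosystem I core genes psaB, with 11.6 FPKM in gun4-1 and 1.37 FPKM in Col-0 (3.07, SE 0.39), and psaA (2.85, SE 0.36) had the largest called differences. The Rubisco large subunit gene rbcL had 65.1 FPKM in gun4-1 and 14.3 FPKM in Col-0 in the authors' deposited table (2.19, SE 0.22). The photosystem II core gene psbA had 29.2 FPKM in gun4-1 and 6.07 FPKM in Col-0 (2.27, SE 0.32).

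Genes of the plastid-encoded RNA polymerase rose as well: rpoC2 by 2.72, rpoC1 by 2.24, rpoB by 1.602 and rpoA by 0.81. A run of ribosomal protein genes was much more abundant and rose by less, with rpl16 at 4477 FPKM in gun4-1 and 2285 FPKM in Col-0 (0.97) and rpl14 at 2046 FPKM in gun4-1 and 1254 FPKM in Col-0 (0.71). In the same run rps19 rose by 0.38. The NDH complex, which returns electrons from ferredoxin to the plastoquinone pool, was divided. Its genes ndhA, ndhI, ndhG and ndhH rose by between 1.64 and 2.32, while ndhJ, ndhK and ndhC were not called, with -0.04, 0.07 and -0.28. The short genes psaJ and psbM had lower listed levels in gun4-1 and were not called (-1.80, SE 1.70, and -0.49, SE 1.34). For psbH, listed at 28.5 FPKM in gun4-1 and at 0 in Col-0, no fold was computed. Of 161 mitochondrial genes 148 were untested. Among the 13 tested 4 were higher and none lower, and ATMG01390 had 203 FPKM in gun4-1 and 70.2 FPKM in Col-0 (1.54, SE 0.18). All 161, untested ones included, summed to 635 FPKM in gun4-1 and 1201.5 FPKM in Col-0.

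Tetrapyrrole synthesis makes heme and chlorophyll from glutamate. Of 25 tested genes 18 were higher and none lower, with a median of 0.50. Early steps included HEMC, porphobilinogen deaminase, at 173 FPKM in gun4-1 and 72.1 FPKM in Col-0 (1.26, SE 0.17), the glutamyl-tRNA reductase gene HEMA1 (0.50) and the aminotransferases GSA2 (0.54) and GSA1 (0.46). HEMF1, coproporphyrinogen oxidase, rose by 0.89. In the chlorophyll branch, the other chelatase subunits rose by 0.57 (CHLI2), 0.44 (CHLI1) and 0.32 (CHLD), the methyltransferase CHLM by 0.66 and the cyclase subunit CRD1 by 0.67. Of the light-dependent protochlorophyllide reductases, PORC rose by 0.91 and PORB by 0.87, and PORA was untested at 0.134 FPKM in gun4-1 and 0.211 FPKM in Col-0. In the heme branch neither ferrochelatase was called, with 0.20 for FC2 and -0.12 for FC1, nor was the heme oxygenase HO1 (0.12). The repressor of the pathway FLU was not called either (0.21, q = 0.438).

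Of 29 tested nuclear genes for plastid ribosomal proteins 26 were higher, all by less than 2-fold, with log2 fold changes of tested members between 0.20 and 0.77. RPL21C led with 534 FPKM in gun4-1 and 313 FPKM in Col-0 (0.77, SE 0.17). Cytosolic ribosomal proteins gave another picture: none of 91 large-subunit and none of 76 small-subunit genes was higher, and 1 and 3 were lower. Other machinery of the plastid had a smaller share of calls than the plastid ribosomal proteins (89.7%). Of 18 import genes TIC62 (0.76) and TIC40 (0.31) were higher and none was lower (11.1% called, against 14.1% of all genes). The list median was -0.01. Of 25 protease and chaperone genes 4 were higher, led by the chaperonin CPN60B (0.46), and 2 were lower, the Clp ATPase CLPD (-0.44) and the chaperone HSP90C (-0.31). Here 24% were called, above the share of all genes. Among 23 genes of plastid transcription 4 were higher and 2 lower (26.1% called, also above the share of all genes). Both lower ones were phage-type RNA polymerases, SCA3 (-0.43) and AT5G15700 (2.65 FPKM in gun4-1 and 5.81 FPKM in Col-0, -1.13, SE 0.35), while PTAC16 rose by 0.64 and the sigma factor SIG2 by 0.40.

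The inhibited pathway itself, carotenoid synthesis and the plastid MEP pathway that feeds it, had 8 of 23 genes higher and 1 lower. Phytoene synthase PSY had 46.6 FPKM in gun4-1 and 27.4 FPKM in Col-0 (0.76, SE 0.41, q = 0.0181), and the MEP enzyme HDS had 101 FPKM in gun4-1 and 67.0 FPKM in Col-0 (0.59). Phytoene desaturase PDS, the target of norflurazon, was not called (0.13, SE 0.43). The cleavage enzyme CCD4 rose by 0.88, and CCD1 fell by 0.47. Fatty acid and lipid synthesis in plastids had 11 of 22 genes higher and none lower, among them CAC1, a subunit of acetyl-CoA carboxylase (0.77). In nitrogen and sulfur assimilation 8 of 19 genes were higher and 1 lower. Plastid glutamine synthetase GS2 had 191 FPKM in gun4-1 and 66.1 FPKM in Col-0 (1.53, SE 0.28), and nitrate reductase NIA2 had 189 FPKM in gun4-1 and 77.0 FPKM in Col-0 (1.297, SE 0.17). The cytosolic glutamine synthetase GLN1.1 fell by 0.67. Starch and sugar genes were higher in 9 of 22 cases and lower in 1: granule-bound starch synthase GBSS1 rose by 1.86 (SE 0.37), ADP-glucose pyrophosphorylase APS1 by 1.13, and the glucose 6-phosphate translocator GPT2 fell by 2.02 (SE 0.74).

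Of 21 tested light signalling regulators 2 were higher and none lower (9.52% called, against 14.1% of all genes): GLK2, a transcription factor of chloroplast development, had 42.4 FPKM in gun4-1 and 26.5 FPKM in Col-0 (0.68, SE 0.23), and BBX14 had 27.6 FPKM in gun4-1 and 18.0 FPKM in Col-0 (0.62, SE 0.19). GLK1 was not called at 4.87 FPKM in gun4-1 and 3.38 FPKM in Col-0 (0.53, SE 0.36, q = 0.0912), nor was HY5, a factor of light responses (-0.18). In the circadian clock 1 of 17 genes was higher (RVE1, 0.38) and 2 were lower (PRR7, -0.84, and ELF3, -0.37).

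**Figure D3:**
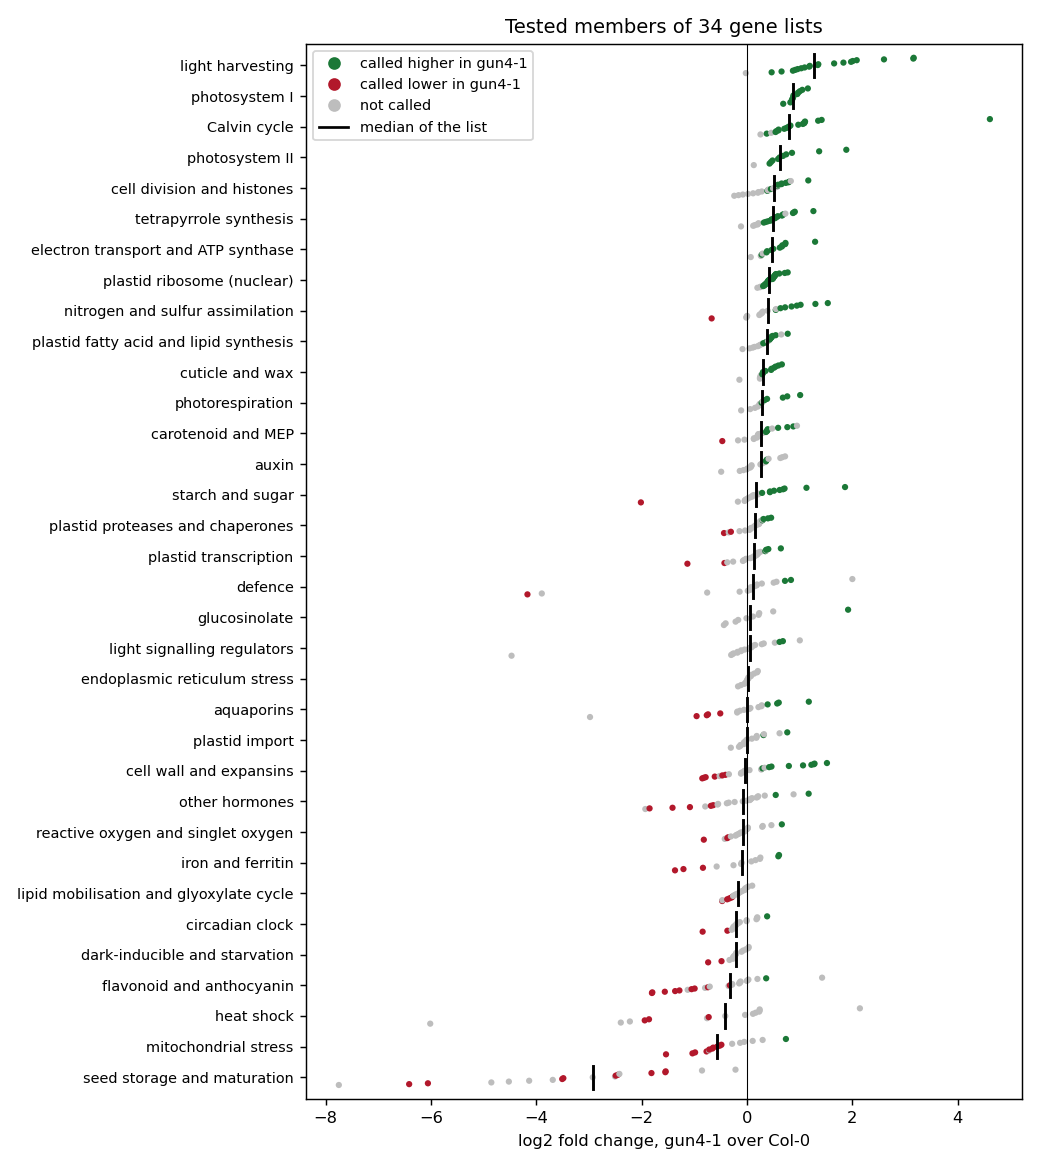
Log2 fold change of gun4-1 over Col-0 (horizontal axis) of every tested member of 34 gene lists (rows, ordered by median); each point is 1 gene, green where called higher, red where called lower and grey where not called, and the black bar is the list's median. Light harvesting (1.27) lies at the top and seed storage and maturation (-2.93) at the bottom, and the medians of all 5 photosynthesis lists lie above 0.

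Promoters of the genes at both ends were read from RefSeq TAIR10.1, to show what stands before the genes with large differences. The windows printed are the 250 bases before the annotated start, in the direction of the gene, and were chosen as the called genes with the largest differences in their lists that stand alone at their listed place, whose window overlaps no other gene and holds a searched motif; LHCB1.1 is shown as well. Searched on both strands were the G-box CACGTG, the ABRE ACGTGTC, which can overlap a G-box, the CCAAT box CCAATC, the I-box GATAAG, the evening element AAATATCT, the telo box AAACCCTA, the site II element TGGGCC and the heat shock element GAANNTTC. Capitals mark matches, and position -1 is the last base before the start. LHCB1.1 (chr1:10475970-10476219, minus strand) holds no match. LHCB2.2 (chr2:1800473-1800722, minus strand) has a CCAAT box at -53, and LHCB2.1 (chr2:1824481-1824730, minus strand) has one at -59 and an I-box at -221. PSBQ-2 (chr4:2673244-2673493, minus strand) has G-boxes at -145 and -77, the second overlapped by an ABRE, an I-box at -15 and a reversed CCAAT box at -246. PSAK (chr1:10721933-10722182, plus strand) has a site II element at -136 and a reversed I-box at -67. Of the genes that were lower, SESA5 (chr5:22239188-22239437, minus strand) has a G-box at -68, and PER1 (chr1:17780179-17780428, plus strand) has a G-box at -48 overlapped by a reversed ABRE, and a reversed site II element at -231. The same rule picked LDOX and the plastid ribosome gene AT3G13120, whose windows are not printed. LDOX, which was lower, has a CCAAT box at -182 and a site II element at -235. AT3G13120 has site II elements at -121 and -76 and a heat shock element at -231.
LHCB1.1: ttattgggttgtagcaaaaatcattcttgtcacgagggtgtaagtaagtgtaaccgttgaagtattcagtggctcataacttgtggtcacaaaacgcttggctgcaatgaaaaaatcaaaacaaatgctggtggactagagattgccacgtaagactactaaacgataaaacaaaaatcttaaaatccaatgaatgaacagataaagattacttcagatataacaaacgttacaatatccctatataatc
LHCB2.2: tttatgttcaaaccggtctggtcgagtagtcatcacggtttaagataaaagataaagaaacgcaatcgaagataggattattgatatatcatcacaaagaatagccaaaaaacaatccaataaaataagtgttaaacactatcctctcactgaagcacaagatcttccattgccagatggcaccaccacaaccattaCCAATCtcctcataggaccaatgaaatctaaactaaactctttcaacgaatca
LHCB2.1: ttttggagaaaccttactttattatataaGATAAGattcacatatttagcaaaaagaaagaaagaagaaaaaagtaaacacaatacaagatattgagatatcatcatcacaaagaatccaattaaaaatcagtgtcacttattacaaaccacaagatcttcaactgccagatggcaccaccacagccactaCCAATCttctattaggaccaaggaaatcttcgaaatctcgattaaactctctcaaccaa
PSBQ-2: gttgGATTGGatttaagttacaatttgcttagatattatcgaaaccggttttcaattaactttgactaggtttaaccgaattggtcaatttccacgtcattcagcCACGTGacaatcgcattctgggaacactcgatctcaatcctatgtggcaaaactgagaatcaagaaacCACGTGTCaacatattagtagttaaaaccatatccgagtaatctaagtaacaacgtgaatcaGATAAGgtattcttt
PSAK: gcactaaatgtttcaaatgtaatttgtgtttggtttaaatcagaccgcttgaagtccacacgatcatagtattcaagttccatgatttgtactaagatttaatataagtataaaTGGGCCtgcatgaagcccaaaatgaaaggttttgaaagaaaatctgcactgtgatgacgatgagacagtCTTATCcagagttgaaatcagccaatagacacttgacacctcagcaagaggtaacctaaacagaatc
SESA5: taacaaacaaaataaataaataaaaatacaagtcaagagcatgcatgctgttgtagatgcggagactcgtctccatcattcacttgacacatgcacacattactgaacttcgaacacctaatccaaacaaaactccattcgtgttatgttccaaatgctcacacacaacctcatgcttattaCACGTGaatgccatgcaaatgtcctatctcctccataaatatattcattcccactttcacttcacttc
PER1: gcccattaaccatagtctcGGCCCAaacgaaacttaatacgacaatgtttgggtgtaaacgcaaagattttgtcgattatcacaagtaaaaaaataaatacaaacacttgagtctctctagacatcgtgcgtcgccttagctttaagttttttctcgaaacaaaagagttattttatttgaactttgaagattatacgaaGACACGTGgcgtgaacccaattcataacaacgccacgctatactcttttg

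Over windows of 250 bases before to 50 bases after the start, an I-box stood in 18.6% of promoters of nuclear genes called higher, 13.5% of those called lower and 15.2% of all 18918 read. A telo box stood in 3.23% of promoters of genes called higher, 9.24% of those called lower and 5.56% of all. For the site II element the shares were 13.9% of genes called higher, 20.3% of genes called lower and 19.2% of all. Within the lists, the CCAAT box was present in 55.0% of light-harvesting promoters against 13.0% of all, the I-box in 66.7% of photosystem I promoters, and the G-box in 63.6% of photosystem II and 52.6% of seed maturation promoters against 8.72% of all. High shares also stood in lists with no gene called higher: the G-box in 69.2% of endoplasmic reticulum stress promoters and the I-box in 64.3% of dark-inducible and starvation promoters. Of genes called at least 2-fold higher 5.30% had a G-box, and of those at least 2-fold lower 14.7%. These are matches of letters, given without a test.

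Of 19 tested seed storage and maturation genes 9 were lower and none higher, with a median of -2.93, and all 19 had a lower listed level in gun4-1. The 25 genes of the list, 6 of them untested, summed to 31.1 FPKM in gun4-1 and 375 FPKM in Col-0. M17 (AT2G41260, chr2:17206452-17207698), a late embryogenesis abundant gene, had 0.595 FPKM in gun4-1 and 50.9 FPKM in Col-0 in the authors' deposited table (-6.42, SE 0.92, q = 0.00103). The albumin gene SESA5 (AT5G54740, chr5:22238358-22239187) had 0.929 FPKM in gun4-1 and 62.0 FPKM in Col-0 (-6.06, SE 0.80), and the peroxiredoxin PER1 had 0.427 FPKM in gun4-1 and 4.86 FPKM in Col-0 (-3.51, SE 1.24, q = 0.0445). ABI3, a transcription factor of seed maturation, fell by 1.55 (SE 0.46). Large listed differences of CRA1 (4.99 FPKM in gun4-1 and 87.9 FPKM in Col-0, q = 0.194), EM6 (0.112 FPKM in gun4-1 and 24.2 FPKM in Col-0, q = 0.491) and CRC (1.53 FPKM in gun4-1 and 35.1 FPKM in Col-0, q = 0.373) were not called, their SE being between 1.97 and 5.77. These genes also mark seed tissue, and the deposited tables do not show whether 1 library or all 3 gave the Col-0 level.

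Among nuclear genes with at least 5 FPKM in the higher genotype and alone at their listed place, M17 and SESA5 were in the 12 with the largest called decreases. Others of the 12 were the glycine-rich gene AT5G35660 (-4.81), the AWPM-19-like gene AT1G04560 (-4.04), the dehydrin LEA (AT2G21490, -3.77) and the late embryogenesis gene AT3G17520 (-3.56). FTM1 (AT1G43800, chr1:16577521-16579722), an acyl carrier protein desaturase, had 0.559 FPKM in gun4-1 and 24.6 FPKM in Col-0 (-5.46, SE 0.68), and the defensin PDF1.1 had 7.81 FPKM in gun4-1 and 141 FPKM in Col-0 (-4.17, SE 0.52). Storage lipid breakdown and the glyoxylate cycle, which feed the seedling, had 5 of 19 genes lower by small amounts, with isocitrate lyase ICL at 581 FPKM in gun4-1 and 806 FPKM in Col-0 (-0.47, SE 0.20).

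By the same limits, which leave out CA1, the 12 largest called increases held 3 LHCB1 genes and 3 genes annotated as RNA without a protein product (AT4G04595, AT2G06002 and AT1G67105). Members of the Sadhu retrotransposon family were there too: SADHU3-2 (AT3G42658, chr3:14749400-14750294) had 40.03 FPKM in gun4-1 and 3.89 FPKM in Col-0 (3.36, SE 0.40), and SADHU5-1 had 8.30 FPKM in gun4-1 and 1.84 FPKM in Col-0 (2.18, SE 0.57). The cell wall protein gene ECS1 had 78.8 FPKM in gun4-1 and 16.0 FPKM in Col-0 (2.296, SE 0.24). The remaining 3 were AT5G08760 (2.26), AT3G16670, of the Ole e 1 family (2.23), and AT2G27402, annotated as a plastid transcriptionally active protein (2.195).

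Anthocyanins are made by late enzymes of flavonoid synthesis under a complex of MYB, bHLH and WD40 factors. Of 25 tested flavonoid genes 9 were lower and 1 higher, with a median of -0.33. The late enzymes DFR, with 5.58 FPKM in gun4-1 and 19.4 FPKM in Col-0 (-1.80, SE 0.28), and LDOX, with 4.91 FPKM in gun4-1 and 17.2 FPKM in Col-0 (-1.81, SE 0.63), had the largest decreases. The anthocyanin glycosyltransferase UGT79B1 fell by 1.37, the acyltransferase 5MAT by 1.05 and flavonoid 3'-hydroxylase TT7 by 1.28. Of the regulators, PAP1 had 1.45 FPKM in gun4-1 and 4.28 FPKM in Col-0 (-1.56, SE 0.59), TT8 fell by 1.00 and MYB12 by 0.74. Of the early enzymes CHI fell by 0.33, and CHS, F3H and FLS1 were not called, with -0.13, -0.29 and -0.01. UGT78D1, a flavonol glycosyltransferase, rose by 0.36.

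In the heat shock list 3 of 16 genes were lower and none higher (18.8% called, against 14.1% of all genes). HSP70 (AT3G12580) had 11.8 FPKM in gun4-1 and 45.5 FPKM in Col-0 (-1.94, SE 0.19), HSP90.1 had 5.22 FPKM in gun4-1 and 19.0 FPKM in Col-0 (-1.86, SE 0.25), and the immunophilin ROF2 fell by 0.73. In the endoplasmic reticulum stress list none of 13 genes was called, with log2 fold changes between -0.17 and 0.20; in the authors' Cuffdiff test 1 of them, CNX1, had an unadjusted p-value under 0.05 (q = 0.234). Mitochondrial stress genes, which respond to impaired respiration, had 10 of 17 lower and 1 higher, with a median of -0.57. The small heat shock protein AT5G51440 had 6.02 FPKM in gun4-1 and 17.5 FPKM in Col-0 (-1.54, SE 0.32), the protease LON1 19.0 FPKM in gun4-1 and 38.9 FPKM in Col-0 (-1.04, SE 0.18), and AT2G21640 166 FPKM in gun4-1 and 328 FPKM in Col-0 (-0.99, SE 0.18). Alternative oxidase AOX1A fell by 0.49. Ferritins store iron in plastids: FER1 had 415 FPKM in gun4-1 and 1073 FPKM in Col-0 (-1.37, SE 0.21), FER3 80.1 FPKM in gun4-1 and 143 FPKM in Col-0 (-0.84, SE 0.17), and FER2 and FER4 were not called. The ferritin FER1 shares its listed place with 2 further genes. Of 20 tested genes of reactive oxygen and singlet oxygen responses 1 was higher, the catalase CAT3 (0.66), and 3 were lower, among them the kinase OXI1 (-0.82). That is 20% called, against 14.1% of all genes.

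Growth genes were partly higher. Of 26 tested cell division and histone genes 10 were higher and none lower, with a median of 0.51. PCNA2, the sliding clamp of DNA replication, had 29.3 FPKM in gun4-1 and 13.1 FPKM in Col-0 (1.16, SE 0.46), the histone gene AT1G09200 125 FPKM in gun4-1 and 72.0 FPKM in Col-0 (0.80), and the helicase gene MCM3 9.19 FPKM in gun4-1 and 5.52 FPKM in Col-0 (0.73). The ribonucleotide reductase subunit TSO2 rose by 0.79. Of 27 cell wall genes 9 were higher and 6 lower. Of the 9, 6 were expansins, which loosen walls: EXPA8 (1.06), EXPA3 (0.46), EXPA5, the largest of them, with 25.6 FPKM in gun4-1 and 8.94 FPKM in Col-0 (1.52, SE 0.25), EXPB3 (1.28), EXPA1 (1.27) and EXPA6 (1.22). The lower ones of the list were XTH5, XTH15, XTH22 and XTH24, which remodel xyloglucan, and the secondary wall cellulose synthases IRX1 and IRX3. Outside that list 4 expansins were lower, the root hair markers EXPA7 (-0.44) and EXPA18 (-0.58) and, named after their values were seen, EXPA14 (-0.95) and EXPA17 (-0.91), so the called expansins went both ways.

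Cuticle and wax genes were higher in 10 of 15 cases and lower in none, with a median of 0.30; KCS1, a fatty acid elongase, had 44.0 FPKM in gun4-1 and 27.8 FPKM in Col-0 (0.66, SE 0.18). Auxin genes gave 3 higher of 20 and none lower, the transporters PIN3 (0.38) and AUX1 (0.36) and the receptor TIR1 (0.36). This share of 15% was near the 14.1% called among all genes. In the annotated SAUR family, small genes induced by auxin, 16 of 57 were higher and 4 lower, with a median of 0.42. GASA1, a gibberellin-regulated peptide gene, had 880 FPKM in gun4-1 and 2349 FPKM in Col-0 (-1.42, SE 0.18), while its relatives GASA6 and GASA4 rose by 1.17 and 0.54. Aquaporins split evenly, with 4 of 19 higher, led by PIP2;8 (1.17), and 4 lower, led by TIP2;3 (-0.96). Defence genes were called in 3 of 18 cases (16.7%) and glucosinolate genes in 1 of 10 (10%), also near the 14.1% of all genes. The only glucosinolate gene called was the regulator MYB28 (1.92, SE 0.60).

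Markers of cell types moved with some of these groups. Of 5 epidermis markers 4 were higher and none lower, PDF1 by 0.63 (312 FPKM in gun4-1 and 202 FPKM in Col-0), which stands beside the cuticle genes. Of 4 tested xylem markers 3 were lower and none higher. The lower ones include IRX1 and IRX3 of the cell wall list, and XCP2, a protease of xylem vessels, fell by 1.05 (SE 0.21). The vessel regulator VND7 was untested at 0.245 FPKM in gun4-1 and 0.263 FPKM in Col-0. All 5 xylem markers, VND7 included, summed to 29.4 FPKM in gun4-1 and 51.4 FPKM in Col-0. Of 7 root hair markers 3 were lower, COBL9, EXPA18 and EXPA7, with sums of 160 FPKM in gun4-1 and 191 FPKM in Col-0. No endodermis marker was called among 5, and of 5 guard cell, 4 root cap and stele, and 3 tested shoot meristem markers 1 each was higher: KAT1, SHR and STM. Among 4 phloem markers SEOR1 was lower (-0.50). The part of cell type composition in the other results was not tested.

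Sorted by the cell component in the annotation, genes of the thylakoid were called higher in 49 of 102 cases (48.0%), of the chloroplast thylakoid membrane in 77 of 192, of the stroma in 97 of 260 and of the envelope in 91 of 280. Genes of the apoplast were higher in 49 of 156 cases and lower in 13. A gene can stand in several components: the higher apoplast genes include LHCB1.1, CA2 and HEMC, also annotated to plastid components. On the other side stood the proteasome complex, where 12 of 44 genes were lower (27.3%) and none higher, with a median of -0.24 and no difference of 2-fold. Of 184 nucleolus genes 31 were lower and 6 higher, and of 627 mitochondrion genes 69 were lower and 36 higher. The annotated CUL4 RING ubiquitin ligase complex had 9 of 44 lower and none higher. Its lower genes include YAO, which is also among the lower nucleolus genes. Of 20 genes annotated as DEA(D/H)-box RNA helicases 6 were lower and none higher. These components were looked at after the values were known and got no test.

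**Figure D4:**
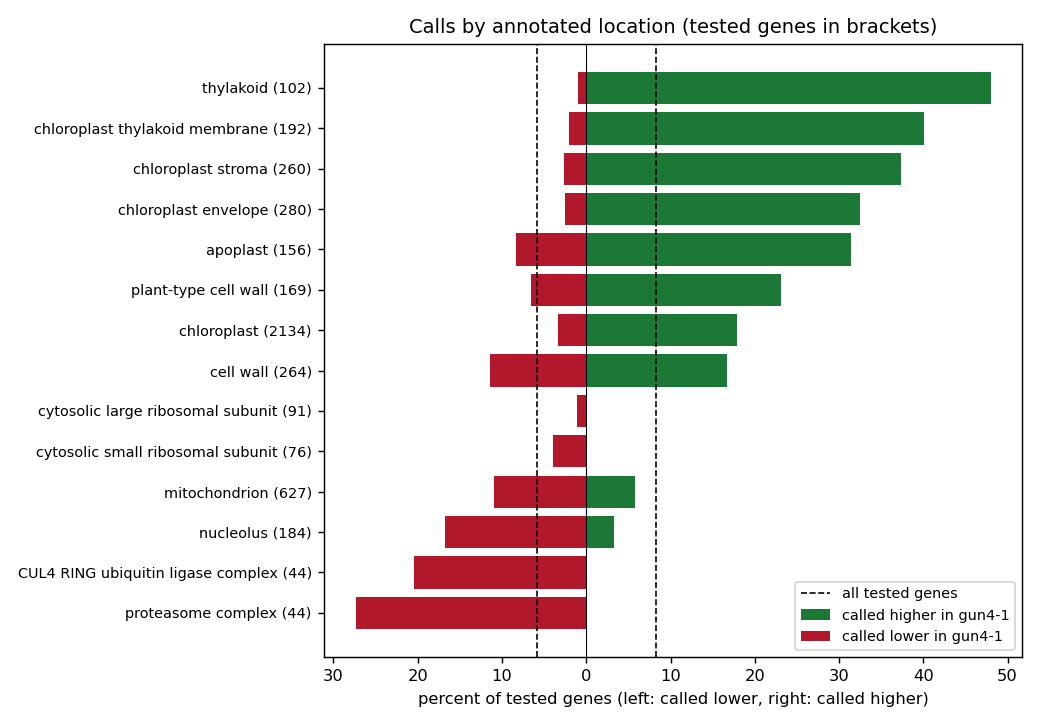
Percent of tested genes called higher (green, to the right) and called lower (red, to the left) in gun4-1 against Col-0 for 14 annotated cell components, with the number of tested genes in brackets; dashed lines are the shares over all tested genes, 8.22% higher and 5.88% lower. The thylakoid reaches 48.0% higher and the proteasome complex 27.3% lower.

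Set beside the other mutants, the photosynthesis lists of gun4-1 had smaller medians. The 3 comparisons share the Col-0 libraries, the authors scaled each table on its own, and differences between mutants were not tested. In gun5-1 29.5% of 18558 tested genes were called (16.4% higher, 13.1% lower) and in gun1-1 33.7% of 18808 (18.8% higher, 14.9% lower), against 14.1% in gun4-1. The 77 photosynthesis genes had medians of 0.85 in gun4-1, 2.03 in gun5-1 and 2.05 in gun1-1, with 70, 77 and 77 called higher. LHCB1.1 rose by 3.16 in gun4-1, 5.67 in gun5-1 and 5.95 in gun1-1, CHLH by 0.69 in gun4-1, 1.85 in gun5-1 and 1.75 in gun1-1, and CA1 by 4.61 in gun4-1, 7.54 in gun5-1 and 7.70 in gun1-1. For the uncalled GUN4 the values were 0.73 in gun4-1, 0.93 in gun5-1 and 1.56 in gun1-1.

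The order of the 3 mutants was not the same in other groups. Plastid-encoded genes had a median of 1.64 in gun4-1 and 1.84 in gun5-1, and of -1.67 in gun1-1, where 39 of 58 were lower and none higher; psaB rose by 3.07 in gun4-1 and 2.99 in gun5-1 and fell by 2.09 in gun1-1. Heat shock genes had a median of -0.41 in gun4-1 and -0.60 in gun5-1, and of 1.31 in gun1-1 with 10 of 17 higher; HSP70 fell by 1.94 in gun4-1 and by 2.28 in gun5-1 and rose by 2.74 in gun1-1. FER1 had -1.37 in gun4-1, -1.36 in gun5-1 and 0.62 in gun1-1, each of them called. Cell division genes had a median of 0.51 in gun4-1, -0.30 in gun5-1 and -0.42 in gun1-1, with 10, 1 and 0 higher and 0, 5 and 7 lower. Cuticle genes gave 0.30 in gun4-1, -0.07 in gun5-1 and -0.75 in gun1-1. The epidermis marker PDF1 rose by 0.63 in gun4-1 and fell by 0.59 in gun5-1 and by 1.78 in gun1-1. Endoplasmic reticulum stress genes were lower in none of 13 in gun4-1, in 11 of 13 in gun5-1 and in 8 of 13 in gun1-1. Seed maturation genes had medians of -2.93 in gun4-1, -1.41 in gun5-1 and -1.62 in gun1-1, all against the same Col-0 libraries.

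**Figure D5:**
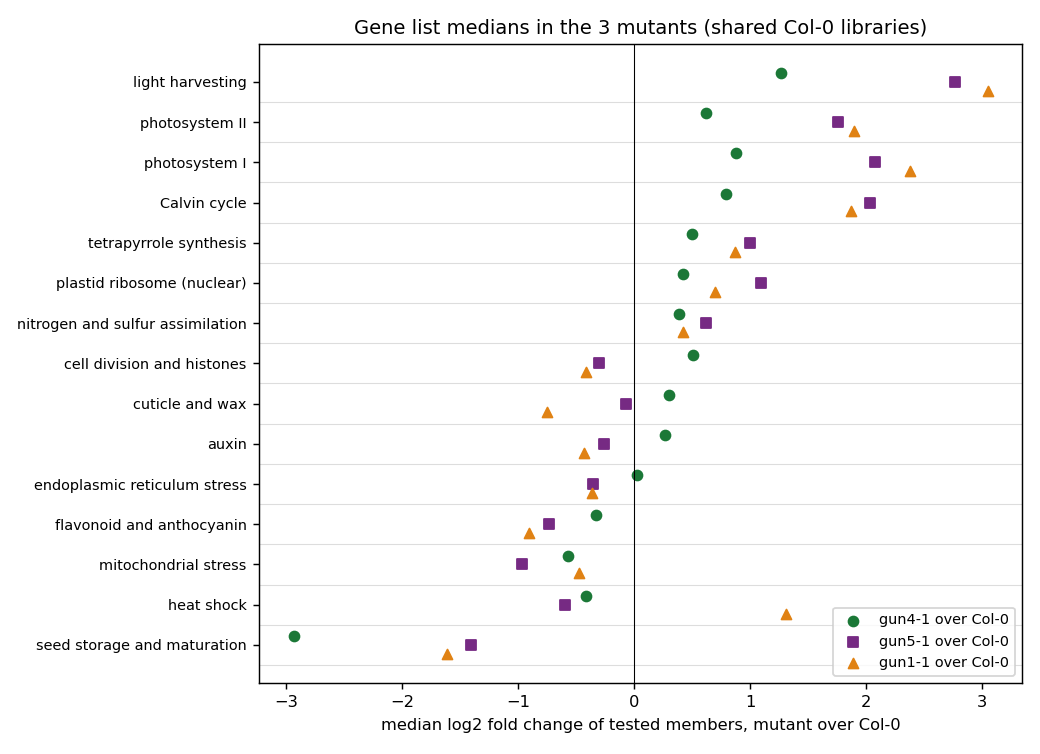
Median log2 fold change over Col-0 (horizontal axis) of tested members of 15 gene lists (rows) in gun4-1 (green circles), gun5-1 (purple squares) and gun1-1 (orange triangles), all against the same Col-0 libraries. Photosynthesis medians are smaller in gun4-1, and heat shock is above 0 in gun1-1 alone. Cell division, cuticle and wax, auxin and, barely (0.02), endoplasmic reticulum stress are above 0 in gun4-1 alone among the 3 medians.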

How the data were processed

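RNA of 12 libraries was sequenced, and reads were handled with Trimmomatic, TopHat, Cufflinks and Cuffdiff, per the submitters' processing notes; no source used here gives versions, genome build or annotation release. The deposited values are the authors' group FPKM per transcript (3 libraries pooled by Cuffdiff), their log2 fold change of gun4-1 over Col-0, their test statistic (a signed score), their p-value and their q-value over the 25731 tested transcripts. The authors scaled each of the 3 tables on its own: Col-0 levels in the gun5-1 and gun1-1 tables were 0.916 and 0.931 times those in the gun4-1 table in the median. Strand use in counting is not stated, so overlapping and antisense genes may share reads; 7587 tested genes share their listed place with another gene.

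A gene was taken as its transcript with the greatest mean FPKM and called at q under 0.05. No pseudocount was added. The SE is the log2 fold change over the statistic, or over the normal quantile of p where that is larger and p is above its smallest listed value of 5e-05; it covers the authors' model only, since the spread of the labelled biological triplicates is not shown. Medians leave out genes listed at 0 in a genotype. Members and the 42 lists (756 genes) were chosen with earlier results of these data known, and lists were given no test. Genes were named by rule: GUN4, CHLH and GUN1; the 12 largest called nuclear changes each way with at least 5 FPKM in the higher genotype, alone at their listed place; the 4 largest called members per list and members that define its role; organelle genes over their range; and the 10 most abundant nuclear genes. Names and promoters come from RefSeq TAIR10.1; 37663 of 37958 genes matched nuclear codes in it, and 109 of 134 plastid genes were named by an identical span. Alternatives were a q-value of 0.01, filters at 1 and 5 FPKM, another representative transcript, a fresh Benjamini-Hochberg adjustment and median centring. Others left out shared places, organelle genes, or 18 genes with a statistic above 5 in size but p above 0.01. The opposite mismatch was not excluded. In the authors' Cuffdiff test rps19 had a statistic of 1.87 with an unadjusted p-value of 0.00125 and was called. A called gene can thus lie within 2 SE of 0. The SE formula, the call rule and the adjustment were run on values simulated from the same SE. Such a run checks the computation only and cannot check the authors' test or their calls. Python 3.11.15 with pandas 2.3.3, numpy 2.4.6, scipy 1.17.1 and matplotlib 3.10.9 was used.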

Additional observations from a re-analysis of the deposited data

How the results depend on the processing

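Of 45 recomputed counts (5 counts under 9 settings), 44 stayed within 1.5 times the reported value. Some of them had no room to move. The 18 genes excluded for a statistic and p that disagree have p above 0.01, and none was called. Median centring leaves the q-values as they are, and the filter at 1 FPKM removed no called gene. At a q-value under 0.01 the genes called lower fell to 732, and 1806 genes were called in all, with 872 of the 2678 calls lost. With at least 5 FPKM 2394 genes were called, with a fresh Benjamini-Hochberg adjustment 2897 and with only genes alone at their listed place 2011. A list median counted as changed only where it shifted by at least the median SE of its members. Of 168 list medians (42 lists, 4 settings) 1 changed sign by that rule, that of cell wall and expansins, to 0.27 at 5 FPKM. Heat shock went to -0.73 and shoot meristem markers to 0.11 there. Smaller changes of sign, possible for medians near 0, were not counted. Of 162 named genes, called or not, 24 lost their call at a q-value under 0.01. The other settings took no call from a named gene. Centring and a pseudocount keep the authors' q-value, and the transcript with the smallest p-value cannot lose a call, so these could not show a loss. No paired analysis was possible because the deposited tables hold 1 value per genotype, and for the same reason no library could be left out. Depth is unknown, so wide errors at low FPKM limit what could be called.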

Other observations

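The most abundant nuclear transcripts in gun4-1 by FPKM included RBCS1A at 9182 FPKM in gun4-1 and 6684 FPKM in Col-0, the metallothionein MT2B at 4549 FPKM in gun4-1 and 3785 FPKM in Col-0 and PYK10, a beta-glucosidase of endoplasmic reticulum bodies, at 4117 FPKM in gun4-1 and 3759 FPKM in Col-0, none of which was called. GRP3S, a glycine-rich protein gene, was the 1 called gene of the 10, with 4693 FPKM in gun4-1 and 6134 FPKM in Col-0 (-0.39, SE 0.24, q = 0.0425). The other 6 of the 10 had an SE between 1.02 and 3.24 or were listed at 0 in Col-0, and none of them was called.

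Transcripts of 1 gene were called in opposite directions in 3 of 4809 genes with at least 2 tested transcripts. For EMB1030, an alanyl-tRNA synthetase, 1 transcript had 17.2 FPKM in gun4-1 and 5.25 FPKM in Col-0 (1.71, SE 0.74), and another had 51.0 FPKM in gun4-1 and 80.1 FPKM in Col-0 (-0.65, SE 0.20). For the myosin gene XI-I, 1 transcript had 3.60 FPKM in gun4-1 and 7.11 FPKM in Col-0 (-0.98, SE 0.44), and another had 3.38 FPKM in gun4-1 and 1.57 FPKM in Col-0 (1.11, SE 0.63). The third gene was AT5G51410, with a LUC7 domain.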
